A study of Canis lupus familiaris with 18 samples.

Results

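The regions described here are stretches of dog chromatin marked by H3K27ac in all 6 dogs of the study and of middle length. The H3K27ac peaks of the 6 dogs on the 38 autosomes (CFA1 to CFA38) were merged wherever they overlapped or touched, and a merged region was kept when every dog had a peak in it and its length was at least 2 kb and below 20 kb. This gave 37261 regions out of 175766 merged regions (21.2%), or 77.7% of the 47984 regions shared by all 6 dogs. The other shared regions were compact (below 2 kb, 8859 regions) or long (20 kb or more, 1864 regions), and 20258 further regions of 2 to 20 kb had a peak in only 1 to 5 dogs. The mid-length shared regions are called "the regions" from here on.

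H3K27ac is the acetylation of lysine on the tail of histone H3 that cells place at active promoters and active enhancers. The mark loosens the hold of nucleosomes on DNA and is read by proteins that help to start transcription. *E2F1* is a transcription factor of the retinoblastoma pathway, known for binding the promoters of genes for DNA replication and the cell cycle, and it is also expressed in neurons, which no longer divide.

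*ChIP-seq*, the sequencing of DNA pulled down with an antibody, was carried out on flash-frozen brainstem of 6 male dogs aged 12 to 16 years, with 1 H3K27ac and 1 *E2F1* library per dog. The 3 ancestral dogs (labelled ins) carried 1 copy of a transposable element (TE) in an intron of *GTF2I* on CFA6, and the 3 derived dogs (labelled noins) carried none. No dog had 2 copies. The tissue is a mixture of neurons, glia and vascular cells, so in each value below fewer cells with a mark and less of it per cell cannot be told apart.

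A peak list holds called peaks and no reads, so depth is unknown here and a dog without a peak has no value at that place. H3K27ac lists held 96561 to 138141 autosomal peaks per dog. *E2F1* peaks were used at a q value below 0.0005, which left 18947 (derived dog 1) to 63306 (derived dog 2) autosomal peaks, each placed at its summit. The study describes its *E2F1* tracks as unusually noisy, with low cross-correlation scores, and cautions that some binding sites may be missed. The counts below take each called *E2F1* peak as it stands. Coordinates are those of CanFam3.1, counted from 1. Tissue markers, genes and sequence were not analysed here.

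Length was chosen by the rule, and is given as a description. The regions spanned 221 Mb in all, which was 49.7% of the length of all merged regions and 10.1% of the autosomes as measured to the last peak. The median length was 4765 bp, with 80% of regions between 2483 and 11319 bp. Per kb of length, short regions were the most frequent. There were 7676 (20.6%) below 3 kb, 12078 (32.4%) of 3 to 5 kb, 12428 (33.4%) of 5 to 10 kb and 5079 (13.6%) of 10 kb or longer, and the last held 31.0% of the length against 8.67% in the first. Of all merged regions of 2 to 20 kb, 64.8% had a peak in 6 dogs, 12.6% in 5 and 2.33% in 1.

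The limits cut through a continuous range of lengths. The region just inside the lower limit lies on CFA1 from 93040229 to 93042228 (2000 bp), where derived dog 1 covered 100% of it and derived dog 3 only 38.9%. Just outside lay a shared region of 1999 bp on CFA1 from 105132283 to 105134281, in which every dog covered at least 74.9%. The longest region lay on CFA38 from 1979043 to 1999041 (19999 bp) and was under peaks of all 6 dogs over 83.9% of its length. The shared region just past the upper limit, on CFA12 from 10579371 to 10599375 (20005 bp), was under peaks of all dogs over 36.7%. Next in length inside the limit were regions on CFA18 from 50168033 to 50188028 (19996 bp, 35.4% common to all dogs) and on CFA31 from 21379783 to 21399772 (19990 bp, 29.8%).

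The edges of the regions differed between the dogs. In each region the outermost start and the outermost end were read from every dog's own peaks. The start ranged over a median of 1106 bp between the 6 dogs (80% of regions, 119 to 3113 bp), and the end over 1120 bp (121 to 3151 bp). Edges fell into a sharp class and a broad remainder: 20.1% of edges agreed within less than 250 bp, the next bin, of 250 to 500 bp, held only 8.76%, and 53.9% ranged over more than 1 kb. A sharp start did not go with a sharp end, since across the 37261 regions Spearman's rho of the start range and end range was 0.0286 (a description over regions that share the same 6 lists). In 3217 regions (8.63%) both edges agreed within 500 bp, and in 303 (0.813%) within 100 bp.

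**Figure D1:**
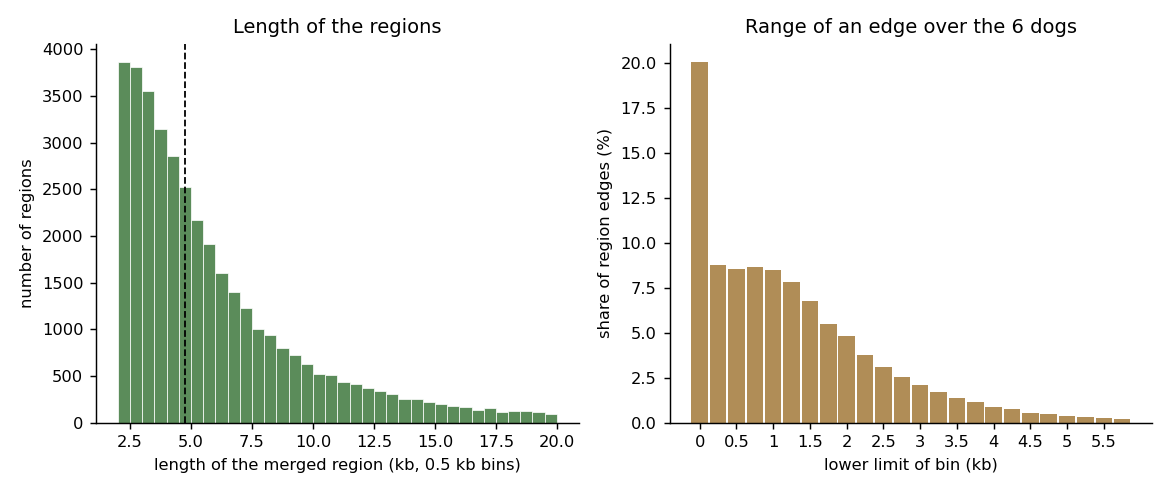
Left, number of regions by length (kb, bins of 0.5 kb), with the median of 4765 bp as a dashed line. Right, share of region edges (%) by the range of the edge over the 6 dogs (kb, bins of 0.25 kb up to 6 kb), where the first bin holds 20.1% of edges and the second 8.76%.

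The sharpest region was on CFA10 from 20067342 to 20073007 (5666 bp), where starts ranged over 17 bp and ends over 14 bp, and each dog covered it with 1 peak over at least 99.6%. Nearly as sharp were regions on CFA19 from 46559077 to 46561410 (ranges of 11 and 23 bp) and on CFA4 from 15329643 to 15331832 (11 and 23 bp). At the other extreme, on CFA4 from 42991133 to 43010186 (19054 bp), starts ranged over 15479 bp. There ancestral dog 2 covered 99.9% with 1 peak while the covered share in the other 5 dogs ran from 8.7% to 59.0%. No base of that region was under a peak in all 6 dogs, and the same held for the other wide-edged regions, on CFA20 from 5250080 to 5259587 and on CFA24 from 24934138 to 24945797.

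The part of a region common to all 6 dogs, called the core here, made up 37.7% of the bases. Bases under peaks of 1 to 5 dogs made up 14.9%, 12.2%, 10.9%, 11.0% and 13.4%, so that bases were most often under the peaks of all dogs or, next, of 1 dog alone. The median region had a core of 1436 bp, or 31.3% of its length. In 25011 regions (67.1%) the core was 1 unbroken stretch, in 7190 (19.3%) it was 2 stretches and in 2787 (7.48%) 3 or more. The remaining 2273 regions (6.10%) had no core, although every dog had a peak in them.

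Each dog built the regions from a small number of peaks. In 16499 regions (44.3%) every dog had exactly 1 peak, and these were shorter (median 3273 bp against 6594.5 bp in the others). Within a single list no 2 neighbouring peaks lay closer than 1049 to 1121 bp, depending on the dog, so a break inside a region spans at least that distance in the dog that has it. Edges were also somewhat closer in the single-peak regions, with a median start range of 939 bp against 1363 bp. The summed edge range rose with length across all regions (Spearman's rho 0.362), and this comparison was not made at like length.

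Dogs differed in how much of the regions they filled. The covered share of region length was 74.5%, 59.2% and 64.9% for ancestral dogs 1 to 3 and 68.4%, 70.5% and 71.3% for derived dogs 1 to 3. The median distance from the merged edge to the dog's own outermost edge, the inset, was 116, 441.5 and 293 bp for the ancestral dogs and 183, 167 and 164 bp for the derived dogs. The mean number of peaks per region was 1.38, 1.35 and 1.37 for the ancestral dogs and 1.39, 1.29 and 1.31 for the derived dogs. Ancestral dog 1 filled most and ancestral dog 2 least, so the ancestral dogs enclosed all 3 derived dogs in coverage and inset, while in peaks per region derived dogs lay at both ends.

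The question of whether the TE genotype goes with the extent of the mark was put to these values, since the rule treats all dogs alike. The values come from the same H3K27ac lists that chose and bounded the regions. Regions without a peak in any 1 dog were left out, so only differences in extent within shared regions could be seen. The covered share was 66.2 ± 7.75% (SD, n = 3) for ancestral and 70.1 ± 1.54% (n = 3) for derived dogs (p = 0.5, exact permutation test, two-sided). The inset was 283.5 ± 163 bp against 171 ± 10.2 bp, and the number of peaks per region 1.37 ± 0.0157 against 1.33 ± 0.0570 (exact permutation tests, p = 0.4 for each, n = 3 dogs per genotype). After Benjamini-Hochberg adjustment over 4 genotype tests all of these 3 stood at 0.667, and 3 dogs against 3 cannot give a p below 0.1. Ancestral dog 2 weighed on the first difference: it was 3.85 percentage points with all dogs, 0.300 without that dog and 8.22 without ancestral dog 1. Here and below, leaving out a dog also rebuilt the regions from the remaining dogs. The difference in inset was −112 bp with all dogs and −28.2 bp without ancestral dog 2. The difference in peaks per region was −0.0356 with all dogs, −0.0669 without derived dog 1 and −0.0143 without derived dog 2.

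**Figure D2:**
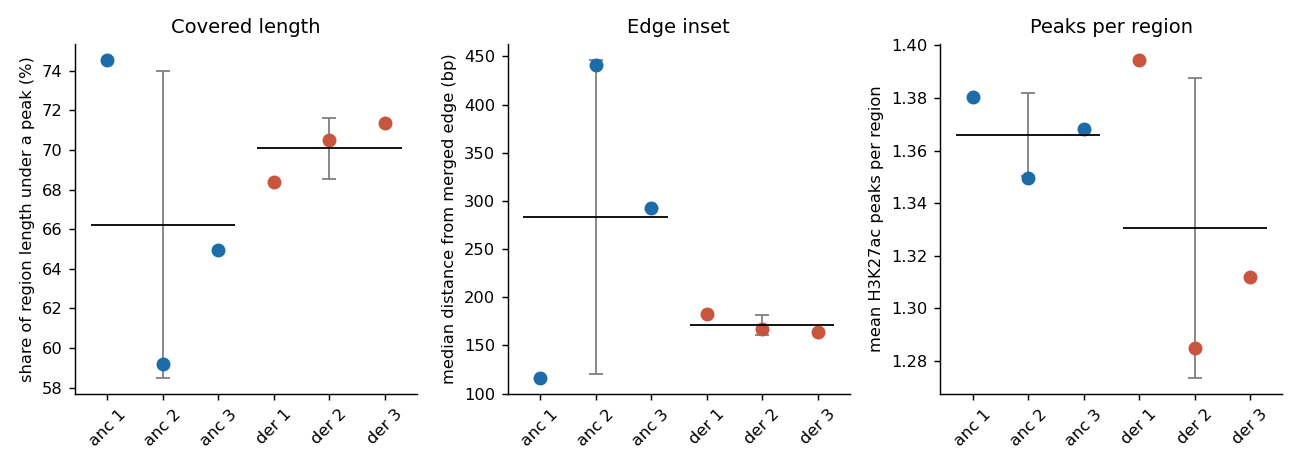
Covered share of region length (%), median edge inset (bp) and mean number of H3K27ac peaks per region for each of the 6 dogs, ancestral (anc) in blue and derived (der) in red; black lines are genotype means and grey bars 1 SD (n = 3), and the axes do not start at 0. Ancestral dogs 1 and 2 mark the extremes of coverage, at 74.5% and 59.2%.

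Pairs of dogs of 1 genotype were not closer at the edges, on average, than mixed pairs. The median difference between the edges of 2 dogs was 229 bp on average over the 6 pairs of equal genotype and 211 bp over the 9 mixed pairs, given as a description. The closest pair was ancestral dog 3 with derived dog 1 (163 bp) and the farthest ancestral dog 2 with derived dog 2 (338 bp).

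Single regions with covered lengths that did not overlap between genotypes were about as frequent here as in shared regions at large. All 3 derived dogs covered more than all 3 ancestral dogs in 2046 regions (5.49%), where the share over all shared regions was 5.33%. The reverse held in 848 regions (2.28%), against 2.39% over all shared regions. The regions themselves make up 77.7% of all shared regions. More cover in derived dogs was seen in 4.64% of compact and 5.42% of long regions, and the reverse in 3.05% and 1.61%. Together the 2046 and 848 regions made 2894, and leaving out any 1 dog, which eases the condition, gave 5628 to 8482. The widest gap in favour of the derived dogs lay on CFA38 from 20184934 to 20188395, where the ancestral dogs covered 18.1%, 11.3% and 10.2% and the derived dogs 95.6%, 77.3% and 98.1%. On CFA21 from 4862590 to 4864682 the ancestral dogs covered 25.8%, 24.7% and 34.2% and the derived dogs 98.1%, 85.5% and 91.8%. In the other direction, on CFA23 from 5722625 to 5724802, the ancestral dogs covered 84.5%, 96.6% and 94.4% and the derived dogs 27.1%, 31.2% and 27.8%. On CFA1 from 70705691 to 70707773 the ancestral dogs covered 96.3%, 98.8% and 94.1%, and the derived dogs 39.7%, 43.0% and 29.8%. These 4 regions were picked for the gap, and each dog had 1 peak in each of them, so the difference lay in how far the peak reached. None of the last 3 held an *E2F1* peak in any dog.

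H3K27ac peaks in the regions were the stronger ones of each list. Their median fold enrichment was 3.52 to 3.69 across dogs, against 2.68 to 2.90 for peaks elsewhere, and their median percentile by q within the list was 62.1 to 72.1 against 35.7 to 37.99. These values come from the lists that chose the regions and are a description only.

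*E2F1* peaks were not used by the rule, and between 22.9% (derived dog 1) and 34.5% (ancestral dog 2) of a dog's *E2F1* peaks had their summit in the regions. The density was 40.2, 63.99 and 71.9 summits per Mb for ancestral dogs 1 to 3 and 19.6, 97.8 and 42.5 per Mb for derived dogs 1 to 3. Outside all merged regions it was 6.04 to 15.1 per Mb. The dogs spread widely, following the length of their *E2F1* lists, and the derived dogs held both the lowest and the highest value. Comparisons were therefore made within each dog, as log2 ratios tested over the 6 dogs with an exact two-sided sign-flip permutation test with a smallest p of 0.03125, adjusted over 8 tests.

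Sharing by all dogs went with more *E2F1*. In regions of 2 to 20 kb that 1 to 5 dogs had called, the density was 22.1, 28.2 and 30.4 per Mb for the ancestral dogs and 14.4, 44.7 and 23.4 per Mb for the derived dogs. The shared regions were denser in 6 of 6 dogs, by 1.94-fold on average (log2 ratio 0.95 ± 0.30 SD; exact sign-flip permutation p = 0.03125, adjusted p = 0.05, n = 6). With 5 of the 8 tests at the smallest possible p, the adjusted value is 0.05 and not below it. The ratio was smallest in derived dog 1, with the shortest *E2F1* list, at 1.36-fold, and largest in ancestral dog 3 at 2.36-fold. The direction was the same within bins of length: shared regions of 2 to 3 kb held 57.1 ± 26.7 summits per Mb (SD over 6 dogs) against 25.7 ± 9.12 in regions not shared, and those of 5 to 10 kb held 52.7 ± 25.999 against 30.6 ± 13.8, higher in 6 of 6 dogs in both bins. The mean log2 ratio was 1.06 at 2 to 3 kb, 0.89 at 3 to 5 kb, 0.74 at 5 to 10 kb and 0.65 at 10 to 20 kb, where 5 of 6 dogs were higher and only 35 regions were not shared.

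Among regions shared by all dogs, the mid-length ones were the least dense. Compact regions held 45.9, 82.7 and 82.7 summits per Mb for the ancestral dogs and 23.8, 105.8 and 48.2 per Mb for the derived dogs. The mid-length regions were lower in 6 of 6 dogs, at 0.857 of the compact density (log2 ratio −0.22 ± 0.09; exact sign-flip permutation p = 0.03125, adjusted p = 0.05, n = 6). Long regions held 47.9, 74.8 and 93.5 per Mb for the ancestral dogs and 23.3, 129.3 and 46.9 per Mb for the derived dogs. Against these the mid-length regions stood at 0.826 of the density, again lower in 6 of 6 dogs (log2 ratio −0.28 ± 0.10; exact sign-flip permutation p = 0.03125, adjusted p = 0.05, n = 6). The difference from compact regions was small and moved with the settings: the log2 ratio was −0.14 with limits of 3 and 15 kb and −0.11 with all *E2F1* peaks of the lists. Without derived dog 1 it was −0.13, but the regions and classes were then rebuilt from the remaining dogs, so this value does not isolate that dog.

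**Figure D3:**
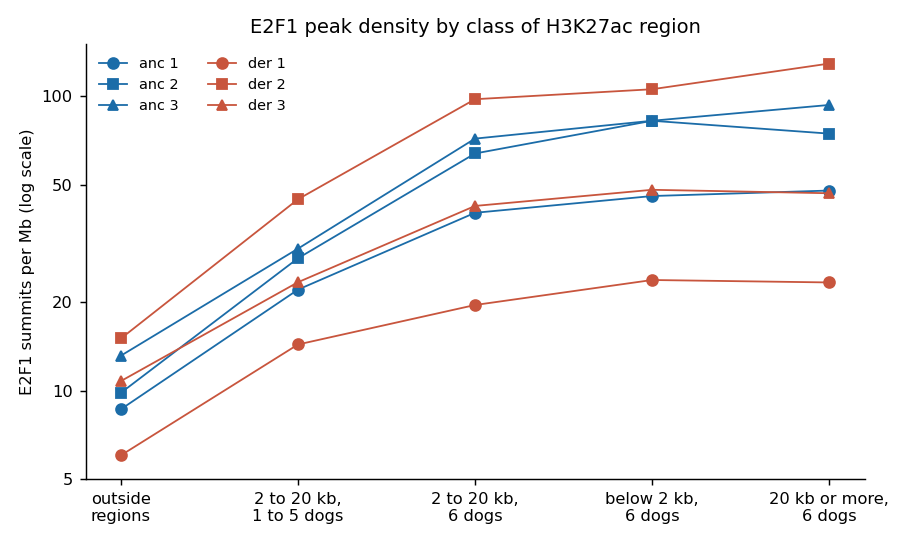
*E2F1* summits per Mb (log scale) in each of 6 dogs, 1 line per dog (ancestral blue, derived red), outside merged regions, in regions of 2 to 20 kb called in 1 to 5 dogs, and in the mid-length, compact and long regions shared by 6 dogs. Each line climbs from 6.04 to 15.1 per Mb outside to 19.6 to 97.8 per Mb in the mid-length shared regions.

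Inside the regions, *E2F1* summits were gathered in the core. Of 74416 summits of all dogs together, 56.3% lay on the 37.7% of bases under peaks of all dogs. The density in the core was 58.3, 102.4 and 110.0 per Mb for the ancestral dogs and 26.3, 144.4 and 60.2 per Mb for the derived dogs. In the margin, the bases under peaks of 1 to 5 dogs, it was 29.3, 40.7 and 48.8 per Mb and 15.5, 69.7 and 31.7 per Mb. Core exceeded margin in 6 of 6 dogs, by 2.05-fold on average (log2 ratio 1.04 ± 0.20; exact sign-flip permutation p = 0.03125, adjusted p = 0.05, n = 6). The step came late: the mean over dogs was 35.4, 34.6, 37.3, 41.3 and 47.8 per Mb where 1 to 5 dogs had a peak and 83.6 per Mb where all 6 had.

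Each region was divided lengthwise into 3 equal parts, and the density was highest in the middle part. The middle part held 44.1, 74.7 and 84.2 summits per Mb for the ancestral dogs and 21.1, 108.6 and 48.0 for the derived dogs, against 38.3, 58.6 and 65.8 and 18.8, 92.5 and 39.7 in the outer parts. The middle was higher in 6 of 6 dogs, by 1.2-fold (log2 ratio 0.26 ± 0.08; exact sign-flip permutation p = 0.03125, adjusted p = 0.05, n = 6). H3K27ac coverage was 75.5 ± 4.40% of bases in the fifth of 10 equal parts against 51.8 ± 6.02% in the first (SD over 6 dogs). The merging favours such a fall toward the ends, since a merged edge is set by the dog that reaches farthest, so it is a description only. Among core bases alone, a comparison added after the data were examined, the middle part held 86.0 ± 44.3 per Mb and the outer parts 82.0 ± 42.1 per Mb. There the log2 ratio was 0.06 ± 0.07 (exact sign-flip permutation p = 0.125, n = 6). Within the middle part, core still exceeded margin, with a log2 ratio of 0.92 ± 0.19 in 6 of 6 dogs (exact sign-flip permutation p = 0.03125, n = 6).

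At the edges the density fell unevenly. The mean was 49.9 ± 22.2 per Mb in the first 250 bp inside the merged edge and 45.7 ± 23.0 in the first 250 bp outside. The next 250 bp outside held 34.8 ± 17.7, and the bins from there to 1250 bp held 30.7, 31.1 and 34.6. Between 1.75 and 2 kb outside it was 24.1 ± 11.2. Bases of other merged regions were left out. Over 500 bp on either side, the inside was denser in 5 of 6 dogs, with 36.3, 54.2 and 57.3 per Mb in ancestral dogs and 19.1, 83.2 and 37.1 in derived dogs against 25.7, 41.0 and 58.8 and 13.5, 68.0 and 34.9 outside. This difference did not pass the test (log2 ratio 0.29 ± 0.22; exact sign-flip permutation p = 0.0625, adjusted p = 0.0833, n = 6). It did pass with a window of 1 kb (log2 ratio 0.49), with all *E2F1* peaks (0.51) and with *E2F1* placed by midpoint (0.34), the adjusted p from exact sign-flip permutation being 0.0417, 0.0357 and 0.0417. With an equal number of *E2F1* peaks per dog the log2 ratio shrank to 0.09, with the inside denser in 4 of 6 dogs (exact sign-flip permutation p = 0.469, adjusted p = 0.469, n = 6).

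**Figure D4:**
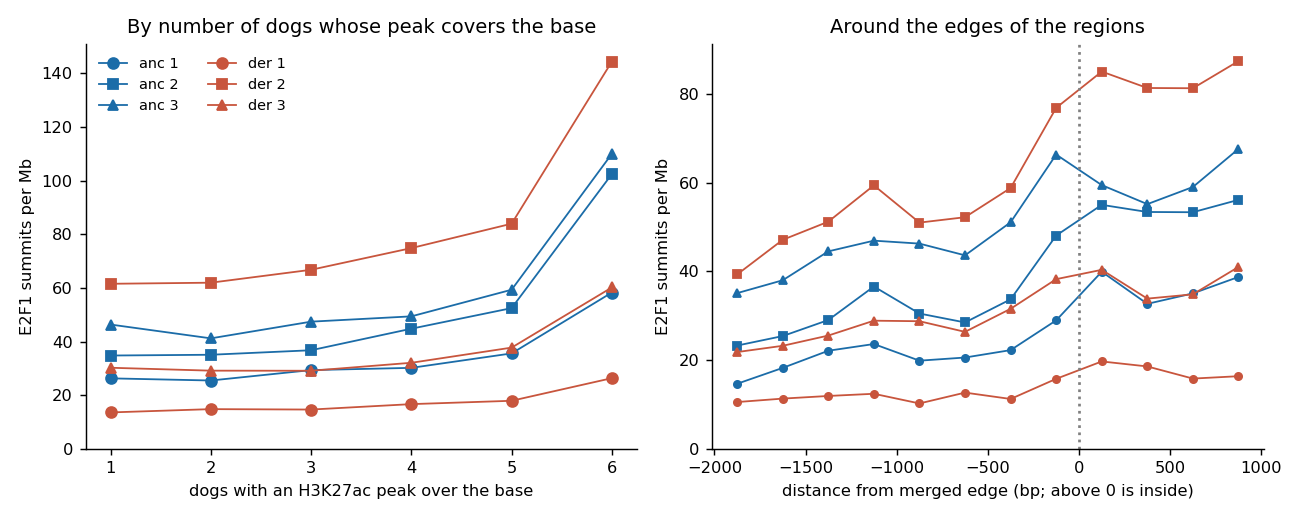
*E2F1* summits per Mb of region bases in each of 6 dogs, by the number of dogs with an H3K27ac peak over the base (left) and by distance from the merged edge in bins of 250 bp (right; values above 0 bp are inside). The left panel steps up at 6 dogs, from a mean of 47.8 to 83.6 per Mb. In the right panel the mean falls from 45.7 to 34.8 per Mb between the first and second bins outside the edge.

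Whether a dog's *E2F1* followed its own H3K27ac was asked in the margin, where some dogs have a peak and some do not. Where the same dog had an H3K27ac peak, the density was 31.8, 39.1 and 61.0 per Mb for the ancestral dogs and 16.7, 104.5 and 28.7 for the derived dogs. Where it had none, the density was 25.7, 41.6 and 39.4 per Mb and 14.3, 30.9 and 35.3 per Mb. Derived dog 2 stood apart, at 3.38-fold, and the other 5 dogs lay between 0.813-fold and 1.55-fold (mean log2 ratio 0.42 ± 0.73; exact sign-flip permutation p = 0.21875, adjusted p = 0.219, n = 6).

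*E2F1* peaks in the regions were not clearly stronger than those elsewhere. The median percentile by q within the list was 52.1, 55.9 and 57.3 for the ancestral dogs and 48.8, 57.2 and 52.1 for the derived dogs, against 48.8, 46.0 and 45.7 and 50.4, 43.5 and 52.1 for all other autosomal peaks. The difference was 6.17 ± 6.42 points (exact sign-flip permutation p = 0.125, adjusted p = 0.143, n = 6). With all *E2F1* peaks it was 7.43 points and passed (exact sign-flip permutation, adjusted p = 0.0357, n = 6).

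Most regions held *E2F1* in some dog and few in every dog. At least 1 dog had a summit in 23805 regions (63.9%), against 26.5% of all merged regions. Among the other shared regions the share was 31.7% of the compact and 98.98% of the long ones. The number of dogs with a summit was 1 in 9588 regions, 2 in 5703, 3 in 3635, 4 in 2326, 5 in 1833 and 6 in 720. The 720 regions were 1.93%, against 0.742% of all merged regions and 2.60% of all shared regions, which include the long ones. Derived dog 1, with the shortest list, limited this count: without it 1993 regions had a summit in every remaining dog, against 697 to 960 when another dog was left out. Regions with *E2F1* in more dogs were longer and had more core, from a median of 3691 bp and 24.7% core with none to 9074 bp and 49.3% with 6, and a longer region has more room for a summit.

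Summits of different dogs in 1 region often lay apart. In 4109 regions with a single summit in each of exactly 2 dogs, the median distance was 954 bp, and 1042 pairs (25.4%) lay within 250 bp. As a share of the length of the region, the median distance was 19.0%. Among the 720 regions with *E2F1* in 6 dogs, 149 (20.7%) had a summit of every dog within 250 bp of each other, and the median of the smallest such stretch was 908 bp.

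The strongest regions with *E2F1* in 6 dogs, ranked by the lowest percentile among the lists, were an uneven group. First came a region at the very start of CFA6, from 412 to 3022, where fold enrichment was only 2.95 to 3.57 although the lowest percentile by q among the 6 lists was 99.86. The second, on CFA20 from 45386140 to 45391929, also had low folds, of 3.19 to 5.96. The others combined high rank with high fold. On CFA26 from 5007028 to 5018977 the fold was 6.96, 9.38 and 21.2 for the ancestral dogs and 9.44, 14.6 and 11.3 for the derived dogs, with the strongest summits within 136 bp. On CFA7 from 43397230 to 43410955 it was 10.4, 10.9 and 18.2 and 10.8, 14.6 and 9.71, with the strongest summits within 74 bp. The fifth lay on CFA11 from 387053 to 390516, with folds of 9.86 to 16.1. Fold is given here for each list on its own, since the lists were not normalized between dogs. For its comparison of genotypes the study removed peak sites that were enriched in its input DNA. That filter was not applied here, and multi-mapped reads had been kept. A high rank in all 6 lists therefore does not by itself mean *E2F1* binding.

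The number of *E2F1* summits overlapped between the genotypes. Per 1000 regions there were 239, 380 and 427 summits for the ancestral dogs and 116, 582 and 252 for the derived dogs, or 349 ± 97.9 against 317 ± 239 (SD, n = 3 per genotype; exact permutation test, p = 1, adjusted p = 1). The sign of this difference turned when all *E2F1* peaks were used. It also turned when ancestral dog 3, derived dog 1 or derived dog 3 was left out and the regions were rebuilt. Without derived dog 3 the difference was only 0.340.

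Regions with *E2F1* in the dogs of a single genotype were rare. All 3 ancestral and no derived dogs had a summit in 145 regions (0.389%, against 0.111% of all merged regions), and all 3 derived and no ancestral dogs in 62 (0.166%, against 0.0535%). For ancestral only, the share was 0.124% of compact and 0.751% of long shared regions. For derived only, it was 0.0564% and 0.322%. A summit of ancestral dogs 1 to 3 lay in 7452, 10636 and 11448 regions. For derived dogs 1 to 3 the numbers were 3917, 13554 and 7681 regions. Derived dog 1, with the shortest list, limited the derived-only count, and derived dog 2, with the longest, limited the ancestral-only count. Whether the difference between 145 and 62 regions goes beyond the lengths of the lists was not tested. The 145 and 62 regions had a median length of 6968 bp and 7073 bp, longer than the 4765 bp of all members. The summits of the 3 dogs lay within 250 bp of each other in 19 of the 145 ancestral-only regions (13.1%) and in 0 of the 62 derived-only regions. The median of the smallest stretch with a summit of each of the 3 dogs was 1870 bp and 2204 bp, and neither difference was tested.

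The top 3 of each kind by rank are given as examples, and their positions do not stand for the whole sets. On CFA20 from 55276645 to 55279420 the fold was 5.91, 11.0 and 9.91 in ancestral dogs 1 to 3, with summits within 51 bp. On CFA24 from 16469950 to 16474498 it was 6.21, 11.5 and 17.7 within 59 bp, and on CFA25 from 3648484 to 3661792 it was 5.78, 6.68 and 12.6 within 52 bp. The 3 derived-only examples follow. On CFA23 from 26797940 to 26804010 the fold was 5.66, 5.49 and 6.81 for derived dogs 1 to 3, over 1186 bp. On CFA30 from 30911981 to 30916250 it was 6.59, 6.13 and 5.74 over 2003 bp, and on CFA1 from 109178156 to 109188405 it was 5.44, 5.70 and 5.67 over 10161 bp. All 6 dogs had H3K27ac peaks in these regions by the rule.

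Near the TE, the study draws attention to an *E2F1* site in intron 1 of *GTF2I*, which encodes the general transcription factor TFII-I. That site falls in a region on CFA6 from 5821227 to 5823462 (2236 bp), at which the 6 dogs covered 90.6% to 99.0% with 1 H3K27ac peak each and 89.4% of bases were core. *E2F1* summits at this threshold were present in ancestral dogs 1 and 3, at 6.49-fold and 6.73-fold and 234 bp apart, and in no other dog. The site was chosen by the study on these samples, so its pattern is not independent evidence. The TE itself lies in a long shared region of 29679 bp, which is not a member.

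The regions tended to sit next to one another. The median gap between consecutive regions was 10936 bp, the nearest neighbour lay at a median of 4068 bp and 54.6% had one within 5 kb. For comparison, consecutive compact shared regions had a median gap of 102089 bp, but there were fewer of them. Joining regions with gaps of up to 5 kb gave 24229 runs, of which 16929 were single regions. The longest run held 17 regions on CFA1 from 20272118 to 20436830. A merged region of any kind was usually close by, at a median of 1386 bp. That is not far above the smallest gap between neighbouring peaks within a list, which was 1049 to 1121 bp depending on the dog. How much of the spacing goes with this limit of the lists was not tested. Only 1082 regions had no other within 100 kb, and the most isolated lay on CFA3 from 80270812 to 80274459, at 3340963 bp from the next, and on CFA31 from 6140681 to 6145710, at 3051295 bp.

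Chromosomes differed more than 3-fold in density. The autosomes held 16.9 regions per Mb, from 8.27 per Mb on CFA29 to 28.1 per Mb on CFA9. The chromosomes rich in regions also had longer ones and more *E2F1* inside them: CFA9 had 73.3 ± 35.4 *E2F1* summits per Mb of region (SD over 6 dogs) and CFA29 had 35.4, the highest and the lowest. Across the 38 autosomes, Pearson's r of regions per Mb was 0.785 with *E2F1* density (Spearman's rho 0.727), 0.741 with median length (rho 0.703) and 0.190 with chromosome length (rho 0.193). These are descriptions over chromosomes that share the same 12 lists, and base composition and gene density were not analysed here. The densest 1 Mb bin, on CFA20 from 50000001 to 51000000, held 63 regions, and 240 of 2220 bins (10.8%) held none. Along the chromosomes from the low to the high coordinate end, each of 10 equal parts held between 9.19% and 10.8% of regions.

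**Figure D5:**
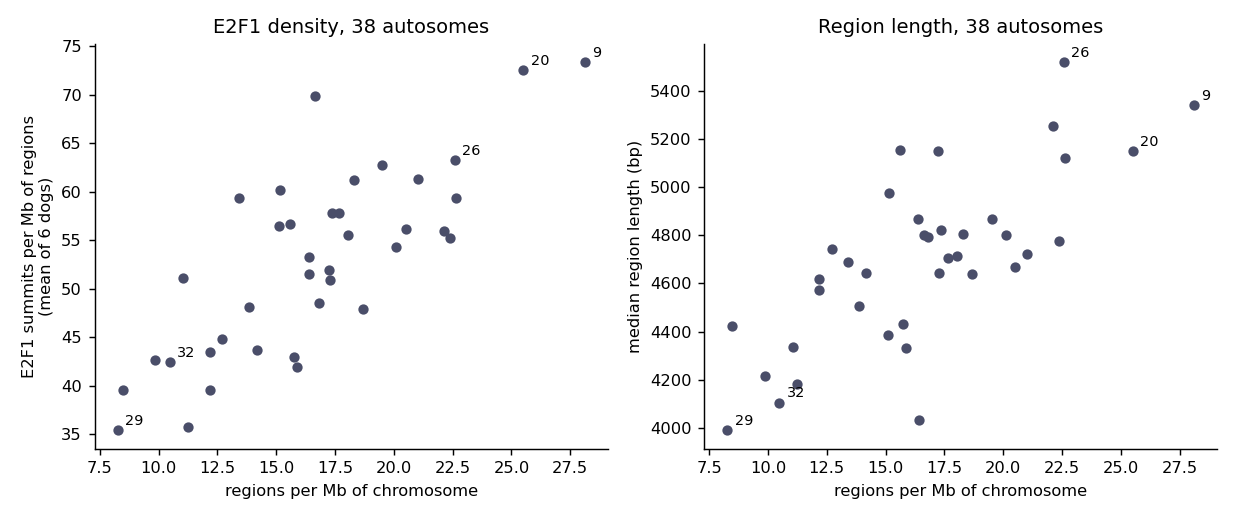
Each point is 1 of 38 autosomes, with regions per Mb of chromosome on the x axis and, on the y axis, *E2F1* summits per Mb of region (left, mean of 6 dogs) or median region length in bp (right); some chromosome numbers are written beside the points. Both rise with density, with r of 0.785 and 0.741, from CFA29 at the low end to CFA9 at the high end.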

How the data were processed

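*ChIP-seq* of H3K27ac and *E2F1* was carried out by the authors on brainstem of 6 dogs. According to the methods, unique molecular identifiers were extracted with umi_tools, reads were trimmed with Trim Galore and aligned to CanFam3.1 with bowtie with multi-mapped reads kept, and peaks were called in each dog with macs2, broad for H3K27ac and narrow for *E2F1*. The submitters' processing notes list Bowtie 1.1.2, MACS2 2.2.0 and Trim Galore 0.0.6, while the methods name a later major version of bowtie. Whether input libraries entered the calls is not given in the sources used here. The deposited score of macs2 was not used. The deposited fold enrichment is a ratio to local background. The significance that macs2 gave each peak is deposited as −log10 values of p and q. Fold and q were used only within a list, because the lists of different dogs were not scaled to one another. Reads, depth and counting error are not analysed here.

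All deposited H3K27ac peaks entered the merging. *E2F1* peaks were kept at q below 0.0005 and placed by summit. A dog's own edges are its outermost peak start and end in a region. Densities within dogs were compared with exact sign-flip tests over 64 assignments, and genotypes with exact permutation tests over 20 assignments, two-sided, with Benjamini-Hochberg adjustment over 8 and 4 tests. An adjusted p of 0.05 or less is counted as past the threshold. Each dog is 1 animal with 1 library per antibody. Functions were tested on simulated data: among 7800 regions all 4000 planted members were found and 4 planted log2 density ratios were recovered within 0.0647.

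Regions are named by rule: those beside the length limits, the 3 longest, the 3 with smallest and largest edge range, the 5 strongest with *E2F1* in 6 dogs, the 3 strongest per direction with *E2F1* in 1 genotype, the 2 per direction with the widest gap in covered share, the 2 most isolated, up to 3 with *E2F1* above 100-fold, those at the sites the study names in *GTF2I*, and extremes by chromosome and bin. The regions and these lists were chosen with earlier results of these data known. Alternatives were H3K27ac peaks at q below 0.05, merging across 500 bp, limits of 3 and 15 kb, all or equal numbers of *E2F1* peaks, *E2F1* above 100-fold left out, midpoints, a 1 kb edge window, *E2F1* as a share of the list, a repeat without each dog, and pairing by replicate number. The comparison of the middle and outer parts within the core, and of core and margin within the middle part, were chosen after seeing the data. Python 3.11.15, numpy 2.4.6, pandas 2.3.3 and matplotlib 3.10.9 were used. No sequence or gene annotation of CanFam3.1 was used.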

Additional observations from a re-analysis of the deposited data

How the results depend on the processing

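Of 95 values under other settings than leaving out a dog, 86 kept their direction and their side of the threshold or, for counts, stayed within 1.5 times the value given above. The median edge range was judged by a move of less than 120 bp, the SD of the inset over dogs, and the *E2F1* share of the list by direction alone. The genotype tests cannot go below 0.1, so their side of the threshold was fixed in advance. The replicate block leaves the genotype differences as they are, so its values are kept by construction. With all *E2F1* peaks, the edge ratio (log2 0.51) and the rank difference (7.43 points) passed the test, the genotype difference in *E2F1* summits per 1000 regions turned to 102.5 (exact permutation p = 0.7) and 3942 regions had *E2F1* in 6 dogs. The edge ratio also passed with a window of 1 kb (0.49) and with midpoints (0.34). With equal numbers of *E2F1* peaks it shrank to 0.0922 (exact sign-flip permutation p = 0.469, higher in 4 of 6 dogs) and 440 regions had *E2F1* in 6 dogs, and with limits of 3 and 15 kb the median edge range was 1264 bp. Among core bases only, the ratio of the middle to the outer parts was 0.0598. The cause of these changes was not tested, except that a longer list gives more regions with *E2F1* in 6 dogs by construction.

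Leaving out each dog in turn leaves 5 dogs, for which the sign-flip test cannot go below 0.0625, so no within-dog ratio could pass. The regions and their classes were rebuilt from those 5 dogs each time, so the values also carry the change of regions. The log2 ratios then ranged from −0.19 to −0.13 against compact regions, from −0.31 to −0.22 against long regions, from 0.88 to 1.03 against regions not shared, from 0.97 to 1.06 for core against margin and from 0.23 to 0.29 for the middle against the outer parts. The genotype difference in *E2F1* summits per 1000 regions ranged from −153.5 to 66.7, with the opposite sign without ancestral dog 3 (6.81), derived dog 1 (66.7) or derived dog 3 (0.340). The median edge range was 978 to 1043.5 bp, regions not overlapping in covered length numbered 5628 to 8482 and regions with *E2F1* in every dog 697 to 1993.

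Replicate numbers were shared between genotypes, but deviations of same-numbered dogs did not go together (correlations of 0.00649, −0.151 and −0.0643), so the numbers were not taken to pair dogs. With the replicate block, sign-flip tests over 3 pairs gave p = 0.5 for covered share (3.85 points), peaks per region (−0.0356) and inset (−112 bp) and p = 1 for *E2F1* summits per 1000 regions (−32.2), where an exact test cannot go below 0.25, and no call changed.

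Peak lists without reads limit these results: a place without a peak has no value, merged edges are set by the dog that reaches farthest, and the densities cannot be corrected for mappability or depth.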

Other observations

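A small number of *E2F1* peaks had a fold enrichment above 100, and 8 regions held at least 1 of them. On CFA17 from 6156275 to 6173561 the highest fold was 16560 in ancestral dog 3, 9947 in derived dog 1, 12351 in derived dog 2 and 13951 in derived dog 3, while it was 4.66 in ancestral dog 1 and ancestral dog 2 had no peak. On CFA8 from 11097873 to 11103954 the core was 1.41% of the length, and 4 of 6 dogs had a peak above 100-fold. On CFA8 from 34606479 to 34611879 there was no core, and the peaks of 4 dogs, at 2261-fold to 7036-fold, had summits within 13 bp. Median folds in the regions were 4.98 to 5.51. Repeat content and enrichment in the input libraries at these places were not analysed here.

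The X chromosome, which the rule leaves out, had 1011 shared regions of 2 to 20 kb among 4541 merged regions, or 8.16 per Mb, below CFA29. Their core share was 40.9%, and they held 46.1 ± 28.03 *E2F1* summits per Mb (SD, n = 6 dogs), lower than in the autosomal regions (56.0 ± 27.7) in 5 of 6 dogs. All dogs were male, and neither density was corrected for the copy number of the X chromosome.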
